A study of Homo sapiens with 15 samples.

Results

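The genes described are those that build ribosomes: subunits of RNA polymerase I, the proteins that modify and cut ribosomal RNA, the assembly factors of both ribosomal subunits, 2 abundant nucleolar chaperones and the transcription factor MYC. They were picked out by symbol, with the NOP, UTP, RRP, NOL and POLR1 name patterns, 6 WD-repeat genes (WDR12, WDR36, WDR43, WDR46, WDR74, WDR75) and 13 named genes. The rule found 60 of the 16324 genes that either of 2 deposited count tables lists. Each table lists 59 of them and 58 in each had enough counts to be tested. UTP14C is not listed in the day 7 table and NOP2 was too low there, while BOP1 is not listed in the day 3 table and UTP25 was too low there. NOL3 and NOL4L match the name pattern but are known for roles outside ribosome production.

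The samples were bulk RNA of immortalized human astrocytes (IHA), an established fetal line immortalized with SV40, in which doxycycline at 1 µg/ml switched on a mutant IDH1, named R132H in the design text of the series. IDH1 is the isocitrate dehydrogenase of the cytosol, and its mutant form makes 2-hydroxyglutarate. Titles carry a tag, b1 or b2, that was read as a batch, and the groups were day 7 of doxycycline in b2 (n = 4), day 7 in b1 (n = 1), day 3 in b2 (n = 4), untreated b2 (n = 3) and untreated b1 (n = 3). All carry the genotype label WT IDH1, the untreated samples have no day, and cells lacking the inducible gene were not given doxycycline in any sample, so the drug, the time in culture and the mutant enzyme cannot be told apart. The day 7 table holds the untreated and day 7 libraries of both batches, and the day 3 table holds b2 alone, with day 3 added. For 2 untreated columns of the day 3 table the labels fit a b1 and a b2 sample each, and they were taken as b2, untreated either way. Their COL1A1 counts of 977 and 1152 UMIs were close to the 1106 and 1305 UMIs of untreated b2 libraries 1 and 2 in the day 7 table, against 3277 and 2002 UMIs in untreated b1 libraries 1 and 2.

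Ribosome production starts in the nucleolus, where RNA polymerase I transcribes the precursor of the 18S, 5.8S and 28S ribosomal RNAs. Box C/D and box H/ACA small nucleolar ribonucleoproteins (snoRNPs) methylate and pseudouridylate it, the small-subunit (SSU) processome folds and cuts its 18S part, and a separate line of factors builds the large 60S subunit. MYC is known to activate many of these genes together, by binding with MAX to E-box motifs, and growing cells keep the pathway high.

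Levels are in CPM, the number of unique molecular identifiers (UMIs) of a gene scaled to a common library total, with TMM factors. A UMI in this 3′-end method stands for a molecule and not for a length of transcript, so levels were not scaled by length. Levels of different genes still cannot be ranked safely, because the counting of a gene varied between the deposited tables. Over the same b2 libraries, NOP2 averaged 1.55 CPM in the day 7 table and 89.2 CPM in the day 3 table. WDR43 averaged 39.4 CPM in the day 7 table and 5.04 CPM in the day 3 table. The libraries of the day 7 table hold 2573290 to 5567651 UMIs, while 1816599 to 4656705 UMIs were counted in those of the day 3 table. IDH1 itself had 28.6 to 38.6 CPM at day 7 in b2 and 43.4 CPM at day 7 in b1, against 26.4 to 35.3 CPM in untreated b2 and 35.1 to 36.8 CPM in untreated b1, but a 3′ tag need not count a transgene, so this checks neither the labels nor the induction. Of 10 astrocyte markers 6 are listed in the day 7 table, led by VIM and CD44, while GFAP, AQP4, ALDH1L1 and SLC1A2 are not listed there. VIM made up most of the sum of the 6, with group means of 6211 to 8160 CPM. Group means of SLC1A3, S100B and NFIA were at most 5.58, 1.21 and 2.3 CPM. SOX9 had means of 39 CPM at day 7 and 21.05 CPM untreated in b2, and 27.89 and 27.1 CPM in b1. CD44 had 685.6 and 476.5 CPM in b2, and 541.2 and 507.7 CPM in b1. Of the fibroblast markers, COL1A1, COL1A2 and PDGFRB summed to 283 to 376 CPM at day 7 in b2 and 955 CPM at day 7 in b1, against 565 to 626 CPM in untreated b2 and 948 to 1023 CPM in untreated b1, and DCN is not listed. COL1A2 alone had 80.7 to 90.8 CPM at day 7 in b2 and 66.2 CPM at day 7 in b1, against 307 to 337 CPM in untreated b2 and 176 to 220 CPM in untreated b1. COL1A1 had 179 to 278 CPM at day 7 in b2 and 863 CPM at day 7 in b1, against 238 to 268 CPM in untreated b2 and 692 to 803 CPM in untreated b1. Listed neuron, oligodendrocyte and microglia markers summed to at most 9.22, 18.9 and 3.98 CPM in any library of that table, and no endothelial marker is listed. The neuron marker TUBB3 is listed in the day 3 table alone, with 68.4 to 82.2 CPM without doxycycline, 113 to 127 CPM at day 3 and 94.6 to 160 CPM at day 7. In bulk RNA, more RNA per cell and more cells that express a gene cannot be told apart, and the part of these markers in the results was not tested.

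At day 7 of doxycycline, 19 of the 58 tested ribosome production genes were higher than in untreated cells and none was lower, by edgeR's quasi-likelihood test (batch as a term, Benjamini-Hochberg adjustment over all 12449 genes tested, adjusted p under 0.05). Over all genes tested, 8.43% were higher and 7.28% were lower, 15.7% in either direction. The log2 change was above 0 for 54 of the 58, with a median of 0.22, beside a median of -0.02 over all genes. The called rises were small, from 1.16-fold (RRP36) to 1.75-fold (RRP7A). They were spread over most classes: 10 of 25 SSU processome and 40S genes, 6 of 16 genes of 60S assembly, 1 of 3 of the box C/D core, 1 of 4 of the box H/ACA core and 1 of 5 Pol I subunits. Neither chaperone nor MYC passed the test. An unadjusted p under 0.05 went with a higher level in 30 of the 58 and with a lower level in 0, and DESeq2 and limma-voom also called 0 lower.

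**Figure D1:**
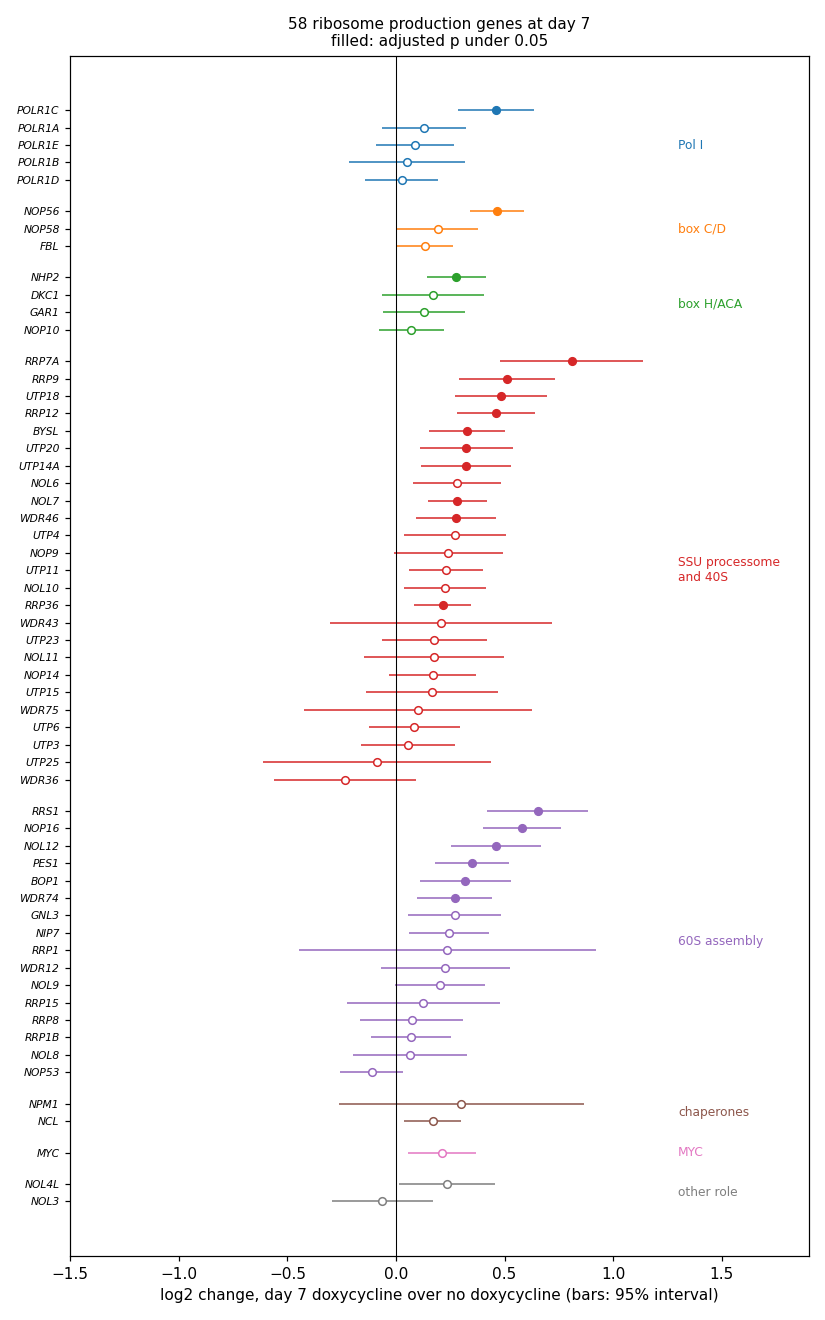
Log2 change of each of the 58 tested genes at day 7 of doxycycline over no doxycycline (x axis, points with 95% intervals from edgeR), grouped by role, with filled points for the 19 with adjusted p under 0.05. All 19 filled points lie right of 0, from 0.21 for RRP36 to 0.81 for RRP7A, and 4 open points (WDR36, NOP53, UTP25 and NOL3) lie left of it.

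The sum over the 59 listed genes gives the size of the shift in scaled counts, relative to each library's total and not per cell. It came to 7347, 7114, 6829 and 6982 CPM in the day 7 b2 libraries and 5679 CPM in the day 7 b1 library, against 6085, 5961 and 5631 CPM in untreated b2 and 5019, 5047 and 5013 CPM in untreated b1. Within each batch, all sums at day 7 were above all untreated sums. NPM1 is one of the larger terms and scattered widely in untreated b2, and without it the sums were 6135 to 6396 CPM at day 7 in b2 and 5386 CPM at day 7 in b1, against 5265 to 5392 CPM in untreated b2 and 4649 to 4687 CPM in untreated b1. Gene by gene, 28 of the 58 stood higher in all 4 day 7 b2 libraries than in all 3 untreated b2 libraries, and 1, NOP53, stood lower in all 4. Over all genes these shares were 12% and 13.1%.

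Because E-box motifs are a known link between MYC and these genes, their promoters are shown as sequence. RefSeq promoter windows (build GRCh38.p14, 250 bases before to 50 after a start) matched 51 of the 60 genes by symbol. The motif searched was CACGTG, which reads the same on both strands and was counted without regard to neighbouring motifs. It occurred in a window of 19 of the 51 genes (37.3%), against 12.8% of the 9401 tested genes of the day 7 table with a window and 8.77% of all 27305 RefSeq genes. Counted by window, it was in 32.2% of their 59 windows, against 7.26% of all promoter windows. Among the other ribosome production genes of fixed lists it was in 31 of 102 (30.4%). By role it was in 12 of 23 SSU processome and 40S genes, 4 of 14 of 60S assembly, 2 of 4 of the box H/ACA core and 1 of 2 of the box C/D core, and in none of the 4 Pol I subunits of the rule with a window or the 2 chaperones. Of the Pol I subunits listed under older symbols, which the rule does not find, POLR1G holds a copy at position -12 from its start. Of its 21 copies in these windows, 17 (81%) began within 50 bases of the start, against 36.9% of all 2821 copies in the RefSeq windows. The motif was in 8 of the 16 genes higher at day 7 that have a window (50%) and in 10 of the 33 tested and not called (30.3%). Over all genes with a window it was in 16.2% of those higher and 11.8% of those lower at day 7. These counts describe letters and not binding. The copies in genes higher at day 7, chosen for print after the values were seen, are given 5′ to 3′ on the gene's strand with the motif in capitals:
RRP9 (chr3:51941892-51941921, minus strand): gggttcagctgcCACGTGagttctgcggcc
UTP18, upstream copy (chr17:51260445-51260474, plus strand): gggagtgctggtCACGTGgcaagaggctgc
UTP18, copy at the start (chr17:51260538-51260567, plus strand): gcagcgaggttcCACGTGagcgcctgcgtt
NOL7 (chr6:13615174-13615203, plus strand): gcctgcgctggcCACGTGgaaagaaacacg
PES1 (chr22:30591880-30591909, minus strand): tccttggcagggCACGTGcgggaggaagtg
BYSL (chr6:41921515-41921544, plus strand): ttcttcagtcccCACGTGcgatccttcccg
UTP14A (chrX:129905914-129905940, plus strand): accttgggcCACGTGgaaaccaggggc
UTP20 (chr12:101280083-101280112, plus strand): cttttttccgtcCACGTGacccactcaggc
WDR46 (chr6:33289190-33289210, minus strand): agaggagttttgCACGTGgat
The flanking letters of these copies differ from gene to gene, and UTP18 holds 2 of them. The genes with the smallest p at day 7, NOP56 and NOP16, have no CACGTG in their windows, which holds for the RefSeq starts only. The GENCODE annotation places the gene starts of NOP56 and NOP16 at 2652145 and 176388975. The bases printed below therefore lie inside both genes as annotated there. GENCODE also places the starts of some genes with printed copies further upstream, at 30607083 for PES1, 41921188 for BYSL and 33289527 for WDR46. The 250 bases before the RefSeq starts are given for comparison, with no letter in capitals:
NOP56 (chr20:2652382-2652631, plus strand): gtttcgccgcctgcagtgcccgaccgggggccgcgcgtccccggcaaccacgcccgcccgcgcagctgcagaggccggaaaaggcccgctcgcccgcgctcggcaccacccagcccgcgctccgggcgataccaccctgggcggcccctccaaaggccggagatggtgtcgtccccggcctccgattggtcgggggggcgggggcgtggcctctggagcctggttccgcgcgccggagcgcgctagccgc
NOP16 (chr5:176388599-176388848, minus strand): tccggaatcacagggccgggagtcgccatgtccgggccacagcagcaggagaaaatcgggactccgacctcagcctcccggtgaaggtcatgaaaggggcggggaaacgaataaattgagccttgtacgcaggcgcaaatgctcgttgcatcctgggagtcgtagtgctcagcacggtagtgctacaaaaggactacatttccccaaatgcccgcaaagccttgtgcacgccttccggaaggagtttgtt

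Among the 5 Pol I subunits found by the rule, POLR1C, which Pol I shares with RNA polymerase III, rose at day 7. It had 64.7, 66.8, 57.9 and 64.7 CPM in the day 7 b2 libraries and 58.2 CPM in the day 7 b1 library, against 41.8, 45.9 and 47.2 CPM in untreated b2 and 46.8, 44.8 and 44.1 CPM in untreated b1. Day 7 libraries were above untreated ones in both batches, and the log2 change was 0.46 ± 0.08 (SE, adjusted p = 0.000672). The gene lies on chromosome 6, 43509702 to 43562419, plus strand (GRCh38). Opposite-strand exons of XPO5 lie over the end of POLR1C in GENCODE 29, and the sources used here do not say whether counting used strand. POLR1A, the largest catalytic subunit, had 30.5, 36.3, 33.5 and 31.7 CPM in the day 7 b2 libraries and 39.9 CPM in the day 7 b1 library, against 31.1, 29.7 and 28.8 CPM in untreated b2 and 39.2, 35.5 and 36.6 CPM in untreated b1. Its groups overlapped in b2, with a log2 change of 0.13 ± 0.09 (SE, adjusted p = 0.385) and a 95% interval of -0.07 to 0.32. POLR1B, the second-largest subunit, had a log2 change of 0.05 ± 0.13 (SE, adjusted p = 0.831), POLR1D one of 0.03 ± 0.08 (SE, adjusted p = 0.873) and POLR1E one of 0.09 ± 0.09 (SE, adjusted p = 0.54). The tables list 3 further subunits under older symbols, which the rule does not find: POLR1F (TWISTNB), POLR1G (CD3EAP) and POLR1H (ZNRD1). None passed the test at day 7, with log2 changes of 0.16 ± 0.17, 0.22 ± 0.16 and -0.09 ± 0.10.

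In the box C/D snoRNP, whose 3 core proteins carry the methylation guides, NOP56 rose and its partners did not pass the test. NOP56 (chromosome 20, 2652145 to 2658393, plus strand, GRCh38) had 520.3, 538, 517 and 496 CPM in the day 7 b2 libraries and 298 CPM in the day 7 b1 library, against 366, 368 and 369 CPM in untreated b2 and 217, 222 and 238 CPM in untreated b1. The day 7 libraries were above all untreated libraries of their batch, and the spread of the untreated b2 libraries was narrow. The means in b2 were 518 ± 17.2 CPM at day 7 (SD, n = 4) and 368 ± 1.47 CPM untreated (SD, n = 3). Its log2 change, 0.47 ± 0.06, had the smallest p of all 58 genes by edgeR's quasi-likelihood test (adjusted p = 1.04e-05). NOP58, which pairs with NOP56 in the particle, had 175, 143, 159.8 and 154 CPM in the day 7 b2 libraries and 49.8 CPM in the day 7 b1 library, against 130.1, 123 and 129 CPM in untreated b2 and 56.9, 62.8 and 58.3 CPM in untreated b1. It was higher at day 7 in b2 and lower in the single b1 library, and its log2 change over both was 0.19 ± 0.09 (SE, adjusted p = 0.154). FBL, fibrillarin, is the methyltransferase of the particle, and it had 609, 554, 526 and 546 CPM in the day 7 b2 libraries and 583 CPM in the day 7 b1 library, against 509, 492 and 501 CPM in untreated b2 and 586, 549.9 and 523 CPM in untreated b1. FBL ranges overlapped in b1, and the log2 change was 0.13 ± 0.06 (SE, adjusted p = 0.151).

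In the box H/ACA snoRNP, NHP2, a core protein that holds the guide RNA, rose. It had 402, 379, 361 and 417 CPM in the day 7 b2 libraries and 544 CPM in the day 7 b1 library, against 345, 329.8 and 341 CPM in untreated b2 and 428, 379.6 and 392 CPM in untreated b1. No day 7 value overlapped the untreated values of its batch, and the log2 change was 0.28 ± 0.07 (SE, adjusted p = 0.00578). Opposite-strand exons of RMND5B lie over the end of NHP2, and 2 annotated pseudogenes carry its name. DKC1, dyskerin, is the pseudouridine synthase of the particle and had 222, 150.1, 151 and 174 CPM in the day 7 b2 libraries and 109 CPM in the day 7 b1 library, against 146, 145 and 137 CPM in untreated b2 and 109, 136 and 119.5 CPM in untreated b1. In b2 all day 7 values were above the untreated ones, while the b1 library lay at the low end of its untreated range, and the log2 change was 0.17 ± 0.11 (SE, adjusted p = 0.329). GAR1 and NOP10, the remaining core proteins, had log2 changes of 0.13 ± 0.09 (SE, adjusted p = 0.363) and 0.07 ± 0.07 (SE, adjusted p = 0.559).

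The SSU processome and 40S class held the most called genes. RRP9, the protein specific to the U3 snoRNP that starts 18S processing, had 38.2, 39.5, 32.1 and 45.7 CPM in the day 7 b2 libraries and 67.3 CPM in the day 7 b1 library, against 27.4, 30.1 and 25.9 CPM in untreated b2 and 50.7, 40.9 and 40.8 CPM in untreated b1. UTP18, a WD-repeat subunit of the processome, had 71.4, 56.5, 61.6 and 66.2 CPM in the day 7 b2 libraries and 58.2 CPM in the day 7 b1 library, against 50.7, 37.9 and 39.2 CPM in untreated b2 and 51.7, 45.99 and 51.0 CPM in untreated b1. RRP12, which acts in late 40S maturation and export, had 70.3, 65.1, 64.9 and 72.05 CPM in the day 7 b2 libraries and 76.1 CPM in the day 7 b1 library, against 47.1, 44.6 and 51.1 CPM in untreated b2 and 62.0, 54.6 and 66.3 CPM in untreated b1. In all 3 genes every day 7 library was above every untreated library of its batch. Their log2 changes were 0.51 ± 0.11, 0.48 ± 0.10 and 0.46 ± 0.09, with adjusted p of 0.00208, 0.00259 and 0.000845 by edgeR's quasi-likelihood test.

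RRP7A, a processome subunit, showed the largest rise of all called genes but at a low level. It had 11.5, 14.1, 13.8 and 12.7 CPM in the day 7 b2 libraries and 13.9 CPM in the day 7 b1 library, against 6.31, 7.29 and 10.1 CPM in untreated b2 and 6.86, 7.41 and 7.76 CPM in untreated b1, from 19 to 79 UMIs per library. The log2 change was 0.81 ± 0.16 (SE, adjusted p = 0.00128), and reads may be shared with its pseudogene RRP7BP, so the value is uncertain. Every day 7 library was above every untreated library of its batch. NOL7, a nucleolar protein of early 18S processing, had 398, 356, 349 and 402 CPM in the day 7 b2 libraries and 306 CPM in the day 7 b1 library, against 305, 332 and 308 CPM in untreated b2 and 253, 242 and 227 CPM in untreated b1. BYSL, bystin, which acts in 40S maturation, had 67.9, 58.2, 63.5 and 62.9 CPM in the day 7 b2 libraries and 68.9 CPM in the day 7 b1 library, against 46.9, 49.4 and 46.5 CPM in untreated b2 and 62.2, 66.2 and 59.9 CPM in untreated b1. Neither gene had a day 7 value within the untreated range of its batch. Their log2 changes were 0.28 ± 0.07 (SE, adjusted p = 0.00481) and 0.33 ± 0.08 (SE, adjusted p = 0.00981), and the exons of RANBP9 lie opposite the end of NOL7. UTP20, UTP14A, WDR46 and RRP36, further processome factors, completed the called genes, with log2 changes of 0.32, 0.32, 0.28 and 0.21.

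The class also held the lowest log2 change of the 58. WDR36, a processome subunit, had 15.5, 18.4, 19.4 and 16.7 CPM in the day 7 b2 libraries and 6.77 CPM in the day 7 b1 library, against 23.3, 15.5 and 17.6 CPM in untreated b2 and 11.3, 15.2 and 12.6 CPM in untreated b1, with overlapping groups in b2 and a low b1 library. Its log2 change was -0.23 ± 0.16 (SE, adjusted p = 0.343). UTP25 had 7 to 31 UMIs per library and a log2 change of -0.09 ± 0.25 (SE, adjusted p = 0.858), with a 95% interval of -0.61 to 0.44. NOL6, a further processome protein, came closest to the threshold among the uncalled genes at 0.28 ± 0.10 (SE, adjusted p = 0.0522).

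In 60S assembly, NOP16 and RRS1 rose the most. NOP16 (chromosome 5, 176383938 to 176388975, minus strand), whose yeast counterpart is part of early 60S precursors, had 180.2, 170.0, 149.9 and 176 CPM in the day 7 b2 libraries and 87.3 CPM in the day 7 b1 library, against 107, 107 and 96.5 CPM in untreated b2 and 76.5, 77.6 and 69.4 CPM in untreated b1. Its b2 means were 169 ± 13.4 CPM at day 7 (SD, n = 4) and 103 ± 5.88 CPM untreated (SD, n = 3), and its log2 change was 0.58 ± 0.09 (SE, adjusted p = 7.63e-05). RRS1, which in yeast helps to load the 5S ribonucleoprotein, had 73.3, 80.7, 88.98 and 97.2 CPM in the day 7 b2 libraries and 40.2 CPM in the day 7 b1 library, against 40.5, 54.1 and 54.7 CPM in untreated b2 and 31.4, 34.3 and 35.9 CPM in untreated b1. Its log2 change was 0.65 ± 0.11 (SE, adjusted p = 0.000429), and a noncoding gene, AC009879.2, overlaps its end on the same strand. In both genes every day 7 library was above every untreated library of its batch.

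PES1 and BOP1, which with WDR12 form the PeBoW complex of 28S and 5.8S processing, were both called. PES1 had 97.8, 108, 92.5 and 101 CPM in the day 7 b2 libraries and 126 CPM in the day 7 b1 library, against 78.7, 71.97 and 91.5 CPM in untreated b2 and 90.7, 87.3 and 102 CPM in untreated b1, and a log2 change of 0.35 ± 0.08 (SE, adjusted p = 0.00507). The lowest day 7 b2 value of PES1, 92.5 CPM, was just above the highest untreated one, 91.5 CPM, and 2 annotated pseudogenes carry its name. BOP1 had a log2 change of 0.32 ± 0.10 (SE, adjusted p = 0.0353), with 1 day 7 b2 library, at 78.3 CPM, below all 3 untreated ones. WDR12 had a log2 change of 0.23 ± 0.14 (SE, adjusted p = 0.308). NOL12, an RNA-binding protein of ribosomal RNA processing, had 87.4, 65.1, 59.3 and 61.6 CPM in the day 7 b2 libraries and 98.4 CPM in the day 7 b1 library, against 51.95, 53.9 and 50.1 CPM in untreated b2 and 63.96, 65.9 and 60.98 CPM in untreated b1. Its log2 change was 0.46 ± 0.10 (SE, adjusted p = 0.0028), and the gene Z83844.1 overlaps its end on the same strand. WDR74, a 60S factor, had 84.2, 82.98, 72.9 and 87.4 CPM in the day 7 b2 libraries and 89.3 CPM in the day 7 b1 library, against 67.5, 71.1 and 65.9 CPM in untreated b2 and 80.9, 62.8 and 72.1 CPM in untreated b1, and a log2 change of 0.27 ± 0.08 (SE, adjusted p = 0.029). TEX54 overlaps the end of WDR74 on the same strand. NOL12 and WDR74 were higher in every day 7 library than in every untreated library of its batch.

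Against this direction, NOP53, a 60S factor that binds the 5S particle, had 291, 273, 265 and 297 CPM in the day 7 b2 libraries and 304 CPM in the day 7 b1 library, against 327, 329 and 336 CPM in untreated b2 and 272, 274 and 266 CPM in untreated b1. All 4 day 7 b2 libraries were below all untreated b2 libraries, while the b1 library was above its own, and over both batches the log2 change was -0.11 ± 0.07 (SE, adjusted p = 0.302). In b2 alone NOP53 was called lower, at -0.23 ± 0.07 (SE, adjusted p = 0.018), and in b1 it was at 0.17 ± 0.10 (SE, adjusted p = 0.357). The abundant chaperones were not called: NCL, nucleolin, had 814, 723, 832 and 772 CPM in the day 7 b2 libraries and 608 CPM in the day 7 b1 library, against 685, 772 and 715 CPM in untreated b2 and 481, 522 and 490.5 CPM in untreated b1. The groups of NCL overlapped in b2, and its log2 change was 0.17 ± 0.06 (SE, adjusted p = 0.074). NPM1, nucleophosmin, had 951, 964, 694 and 728 CPM in the day 7 b2 libraries and 293 CPM in the day 7 b1 library, against 804, 568 and 366 CPM in untreated b2 and 370.0, 360.5 and 345 CPM in untreated b1. The untreated b2 values spread over more than a 2-fold range, the interval was -0.26 to 0.86, and 45 annotated pseudogenes carry its name, so its counts are uncertain.

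MYC, the transcription factor itself, did not pass the test over both batches as reported. Of 9 alternative settings, b2 alone among them, 5 called MYC higher. It had 133, 126, 130.0 and 139.6 CPM in the day 7 b2 libraries and 118 CPM in the day 7 b1 library, against 109.5, 104 and 106 CPM in untreated b2 and 126, 119.6 and 120.4 CPM in untreated b1. All day 7 b2 libraries were above all untreated b2 libraries, and the day 7 b1 library lay just below its 3 untreated ones. Over both batches the log2 change was 0.21 ± 0.08 (SE, adjusted p = 0.0621). In b2 alone it was 0.31 ± 0.08 (SE, adjusted p = 0.0047) from the fit with 1 mean per group and batch. Of a list of MYC's partners and antagonists, 8 were tested at day 7, where 1 was higher and 2 were lower, against 8.43% and 7.28% of all genes. MNT, a repressor that pairs with MAX, rose by 0.47 on the log2 scale (adjusted p = 0.00386). MXI1 and MXD3, which also oppose MYC, fell: MXI1 had 40.4, 32.3, 43.3 and 37.9 CPM in the day 7 b2 libraries and 25.5 CPM in the day 7 b1 library, against 42.5, 45.4 and 53.3 CPM in untreated b2 and 42.9, 45.2 and 38.1 CPM in untreated b1. MXD3 had 37.2, 41.2, 33.3 and 34.8 CPM at day 7 in b2, against 51.2, 55.6 and 49.7 CPM untreated, and 102 CPM at day 7 in b1, against 104, 105 and 98.2 CPM untreated. MXI1 overlapped in b2 and MXD3 in b1. Their log2 changes were -0.37 ± 0.11 and -0.35 ± 0.10, with adjusted p of 0.022 and 0.0163 by edgeR's quasi-likelihood test.

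**Figure D2:**
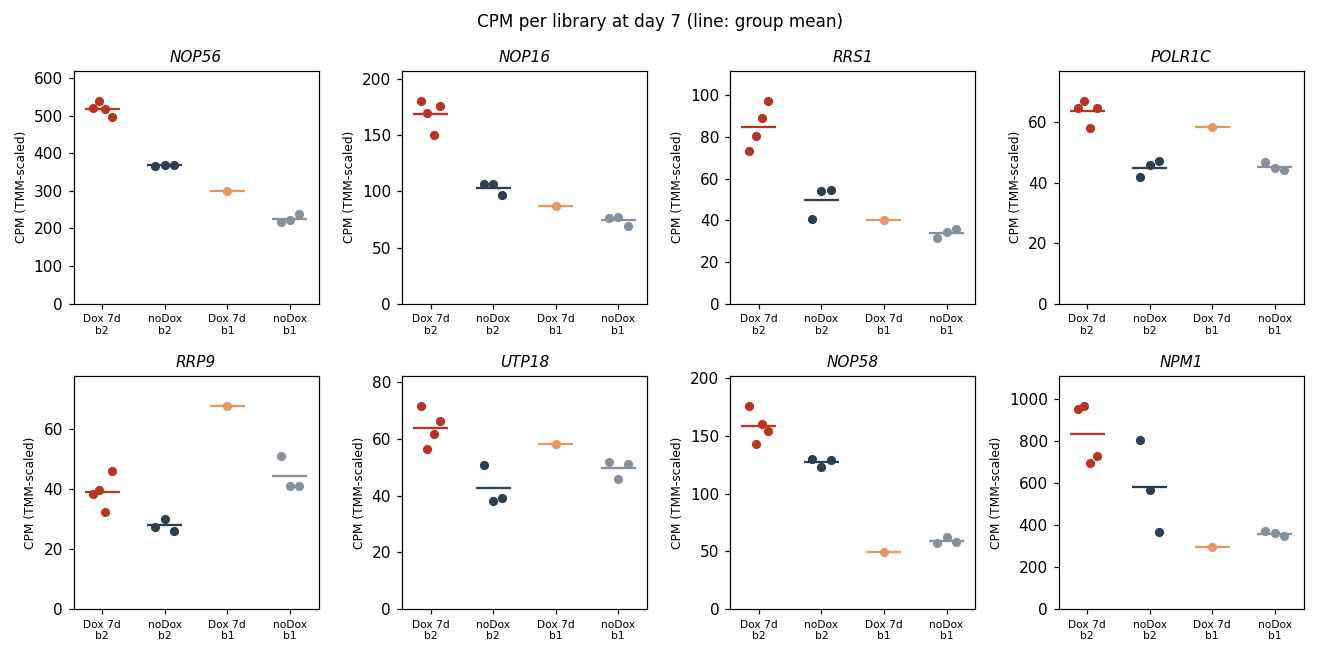
CPM (y axis, TMM-scaled, from 0) of 8 genes in each library of the day 7 table, with day 7 and untreated libraries of b2 and then of b1 along the x axis and a line at each group mean. NOP56, NOP16, RRS1, POLR1C, RRP9 and UTP18 lie higher at day 7 in both batches, NOP58 lies higher in b2 and lower in b1, and untreated b2 values of NPM1 spread from 366 to 804 CPM.

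The other genes of the pathway, 117 in 5 lists that hold none of the 60, were read beside them. Of 112 tested at day 7, 21 were higher and 3 were lower (21.4% in either direction), with a median log2 change of 0.11. Over all genes tested, 8.43% were higher and 7.28% were lower, 15.7% in either direction, with a median of -0.02. Assembly factors made up most of the 21, with 6 of 31 (19.4%) for the 40S subunit and 11 of 43 (25.6%) for the 60S subunit. None was lower in either. DHX37, the helicase that frees U3 from the 18S precursor, had 41.7, 43.2, 39.96 and 45.95 CPM in the day 7 b2 libraries and 49.4 CPM in the day 7 b1 library, against 23.1, 28.1 and 23.1 CPM in untreated b2 and 31.6, 30.4 and 32.6 CPM in untreated b1, a log2 change of 0.73 ± 0.10. PNO1, a late 40S factor, and IMP4, a U3 protein, had log2 changes of 0.43 ± 0.09 and 0.33 ± 0.07. On the 60S side EBNA1BP2, MRTO4 and NOC2L had log2 changes of 0.40 ± 0.07, 0.47 ± 0.08 and 0.31 ± 0.07. Of 16 Pol I factors, scaffolds and snoRNP assembly genes, RUVBL1 and RUVBL2, the ATPases that help to assemble box C/D particles, rose by 0.32 and 0.24, and PIH1D1, a subunit of their complex, fell by 0.25 on the log2 scale. Of 14 exosome genes only EXOSC4 (7.14%), a ring subunit, was called, at 0.39 ± 0.09. All of these passed an adjusted p of 0.05 by edgeR's quasi-likelihood test.

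The batches were compared because b1 has 1 day 7 library, whose spread is taken from the other groups. Within b2, 53 of the 58 log2 changes were above 0 (median 0.26), and within b1 34 were (median 0.09). All 19 called genes were above 0 in both, but they were called from these same libraries, which favours a shared sign. Of all 58, 32 were above 0 in both, and 21 were above 0 in b2 and below it in b1. For 19 of the 58, not all called, every day 7 library was above every untreated library of its batch, in both batches. Over all genes this share was 7.45%. In the other direction it was 0 of the 58, against 6.62% of all genes. In b1 alone, where 1 library is set against 3, 29 of the 58 (50%) were above all untreated libraries and 15 (25.9%) were below, against 34.4% and 36% of all genes. A change of the day 7 effect from batch to batch was called for none of the 58 by edgeR's quasi-likelihood test, nor by DESeq2, while 1 was called lower when libraries were scaled by library size alone. An unadjusted p under 0.05 went with a smaller effect in b1 for 9 and with a larger one for 1, NOP53. Over all 12449 genes 1.12% were called as larger in b1 and 1.52% as smaller, 2.64% in all. Without 1 library the counts stayed at 0 or 1 in each direction, and 1 was reached without day 7 b2 library 17 (both directions) and without untreated b2 library 1 or untreated b1 library 1 (lower). The effect was smaller in b1 for 39 of the 58. NOL11, a processome subunit, had 38.5, 52.7, 50.8 and 46.8 CPM at day 7 in b2, against 42.7, 30.2 and 36.7 CPM untreated. It had 19.5 CPM at day 7 in b1, against 25.98, 31.96 and 31.5 CPM untreated, and the difference was -0.99 ± 0.28 (SE, adjusted p = 0.0579). For NOP58 the difference was -0.56 ± 0.17 (SE, adjusted p = 0.0755), for NOP53 0.40 ± 0.12 (SE, adjusted p = 0.079), for NOP16 -0.47 ± 0.16 (SE, adjusted p = 0.117), for RRS1 -0.53 ± 0.23 (SE, adjusted p = 0.23) and for MYC -0.36 ± 0.14 (SE, adjusted p = 0.171).

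**Figure D3:**
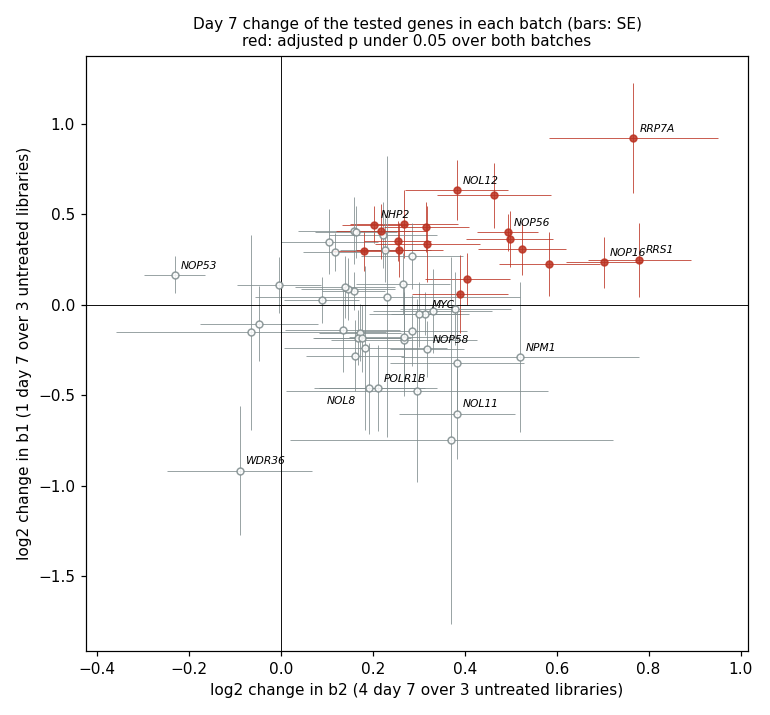
Day 7 log2 change of the 58 genes in b2 (x axis, 4 day 7 over 3 untreated libraries) and in b1 (y axis, 1 over 3), with bars for the SE and red for the 19 called over both batches. The spread of the single day 7 b1 library is taken from the other groups. Red points all lie above 0 on both axes, while 21 open points lie right of 0 and below it, NOL11, NOP58 and MYC among them, and NOP53 lies left of 0 and above it. The red genes were called from these same libraries.

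Without doxycycline, many of the 58 genes already differed between the batches. In untreated b2 against untreated b1, 22 were higher (37.9% in that direction against 23.4% of all genes) and 10 were lower (17.2% against 23.2%), 55.2% in either direction against 46.6%, by edgeR's quasi-likelihood test. Without untreated b1 library 1 or 3 the lower count was 6 or 5. NOP58 had 130.1, 123 and 129 CPM in untreated b2, against 56.9, 62.8 and 58.3 CPM in untreated b1, and a log2 difference of 1.10 ± 0.09 (SE, adjusted p = 4.24e-10). UTP14A had 44.7, 48.3 and 44.7 CPM in untreated b2, against 20.3, 28.1 and 22.8 CPM in untreated b1, and NOP56 had 366, 368 and 369 CPM in untreated b2, against 217, 222 and 238 CPM in untreated b1. Their log2 differences were 0.98 ± 0.13 and 0.70 ± 0.07. In the other direction RRP9 had 27.4, 30.1 and 25.9 CPM in untreated b2, against 50.7, 40.9 and 40.8 CPM in untreated b1, a log2 difference of -0.66 ± 0.13 (SE, adjusted p = 0.000199). With no batch term, the test of day 7 called 3 of the 58 as higher, in place of 19.

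Day 3 of doxycycline was measured in b2 alone, in the day 3 table. At day 3, 2 of the 58 tested genes were higher than in untreated cells and none was lower, against 1.84% and 1.67% of all 10586 genes tested (3.51% in either direction), by edgeR's quasi-likelihood test. An unadjusted p under 0.05 went with a higher level in 13 and with a lower level in 0, and DESeq2 and limma-voom called 1 and 0 higher and 0 lower. The median log2 change was 0.08. RRP7A had 15.8, 11.3, 14.9 and 18.96 CPM at day 3, against 6.25, 8.69 and 11.3 CPM untreated, with a log2 change of 0.83 ± 0.23 (SE, adjusted p = 0.036). NOL8, a nucleolar RNA-binding protein, had 46.2, 42.8, 42.8 and 34.4 CPM at day 3, against 32.7, 30.1 and 24.8 CPM untreated, with a log2 change of 0.48 ± 0.13 (SE, adjusted p = 0.0415). The lowest day 3 library of RRP7A, at 11.33 CPM, was barely above the highest untreated one, at 11.31 CPM, and the groups of NOL8 did not overlap. RRP7A lost its call without day 3 library 9, 11 or 12 or untreated library 1 or 2 (adjusted p up to 0.195), and NOL8 without day 7 library 19, day 3 library 9, 10 or 11 or any 1 of the untreated libraries (up to 0.183). The count of 2 ran from 0, without day 3 library 9 or 11 or untreated library 1 or 2, to 4, without day 7 library 17. NCL came next at 0.22 ± 0.07 (SE, adjusted p = 0.0586). In the day 3 and untreated groups, 11 of the 58 did not overlap and were higher, against 8.6% of all genes, and 0 were lower, against 8.14%. Among Pol I subunits outside the rule, POLR1H had 37.2, 45.7, 33.3 and 40.7 CPM at day 3, against 54.7, 56.6 and 54.4 CPM untreated, and fell by 0.48 on the log2 scale (adjusted p = 0.0139).

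At day 7 against day 3, 7 of the 58 were higher and none was lower, against 2.76% and 2.31% of all genes (5.07% in either direction), with a median log2 change of 0.18. All day 7 libraries were above all day 3 libraries for 18 of the 58 (31%) and below for 0, against 6.17% and 5.47% of all genes. An unadjusted p under 0.05 went with a higher level in 25 and a lower one in 2, and DESeq2 and limma-voom each called 5 higher and 0 lower. NOP16 had 127, 129 and 115 CPM without doxycycline, 159, 136, 151 and 141 CPM at day 3 and 214, 199.7, 179 and 204 CPM at day 7. NOP56 had 429, 433 and 424 CPM without doxycycline, 518, 485, 487 and 471 CPM at day 3 and 599, 633, 602 and 562 CPM at day 7, and RRS1 had 51.5, 67.9 and 68.7 CPM without doxycycline, 92.4, 68.7, 85.6 and 68.7 CPM at day 3 and 92.8, 102, 112 and 118 CPM at day 7. The group means of all 3 were ordered untreated, day 3, day 7, and the day 3 values of all 3 lay above the untreated ones, for RRS1 barely (68.72 CPM, against 68.71 CPM untreated). Their log2 changes at day 7 over day 3 were 0.44 ± 0.07, 0.29 ± 0.06 and 0.45 ± 0.11, with adjusted p of 0.000247, 0.00307 and 0.0131 by edgeR's quasi-likelihood test. At day 3 over untreated they were 0.23 ± 0.08, 0.19 ± 0.07 and 0.32 ± 0.12, of which none passed the test (adjusted p of 0.122, 0.109 and 0.167).

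In the other called genes day 3 values overlapped the untreated ones. UTP18 had 62.2, 46.5 and 46.5 CPM without doxycycline, 56.3, 56.3, 53.6 and 51.3 CPM at day 3 and 87.3, 68.4, 75.3 and 78.4 CPM at day 7. BYSL had 58.0, 60.6 and 57.4 CPM without doxycycline, 56.3, 57.8, 59.0 and 55.3 CPM at day 3 and 83.1, 71.2, 77.9 and 72.7 CPM at day 7. UTP20, a large scaffold of the processome, had 38.7, 44.8 and 37.4 CPM without doxycycline, 33.8, 37.3, 38.7 and 40.7 CPM at day 3 and 52.2, 42.7, 56.02 and 45.1 CPM at day 7. No day 7 value of the 3 genes lay within the range of day 3, and their log2 changes at day 7 over day 3 were 0.51 ± 0.10, 0.42 ± 0.09 and 0.38 ± 0.11 (adjusted p of 0.0023, 0.00339 and 0.0407 by edgeR's quasi-likelihood test). RRP1, a 60S factor in yeast, had 67.8, 81.3 and 73.1 CPM without doxycycline, 78.9, 71.6, 74.8 and 75.03 CPM at day 3 and 102, 92.04, 86.4 and 86.8 CPM at day 7, and a log2 change of 0.29 ± 0.09 (SE, adjusted p = 0.0492) at day 7 over day 3. RRP1 lost its call without any 1 of 10 of the 11 libraries, the exception being untreated library 1, UTP20 without 1 of day 7 library 17 or 19, any day 3 library or untreated library 4, and RRS1 without day 7 library 19 or 20 or day 3 library 10 or 12. The highest adjusted p were 0.153, 0.172 and 0.0789, and without day 3 library 10 or 12 the count of 7 was 4. MYC had 134, 128 and 130.0 CPM without doxycycline, 125, 132, 149 and 147 CPM at day 3 and 164, 157, 163 and 166 CPM at day 7, with a log2 change of 0.23 ± 0.07 (SE, adjusted p = 0.0566) at day 7 over day 3.

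Among MYC's antagonists, MXI1 and MXD3 were lower at day 7 than at day 3. MXI1 had 32.7, 29.2 and 33.9 CPM without doxycycline, 43.4, 43.9, 45.9 and 38.7 CPM at day 3 and 27.3, 21.9, 27.2 and 26.8 CPM at day 7. It rose at day 3 (0.44, adjusted p = 0.0393) and was lower at day 7 than at day 3 (-0.72, adjusted p = 0.000109). MXD3 had 62.8, 69.5 and 60.5 CPM without doxycycline, 68.7, 69.5, 72.5 and 78.6 CPM at day 3 and 45.1, 49.3, 40.5 and 40.9 CPM at day 7, and a log2 change of -0.73 ± 0.10 (SE, adjusted p = 7.02e-06) at day 7 over day 3. MNT had 32.1, 42.3 and 45.7 CPM without doxycycline, 67.03, 49.7, 58.5 and 55.3 CPM at day 3 and 60.04, 60.8, 62.6 and 54.97 CPM at day 7, higher at day 3 than untreated by 0.52 (adjusted p = 0.013). Among all other pathway genes of the lists, 106 were tested, all adjusted p by edgeR's quasi-likelihood test. At day 3, 4 were higher and 1 was lower (4.72% in either direction, against 3.51% of all genes). At day 7 over day 3, 6 were higher and 2 were lower (7.55%, against 5.07% of all genes). The 3 comparisons share libraries (untreated b2, day 3 and day 7 b2), so their values are not independent of each other.

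**Figure D4:**
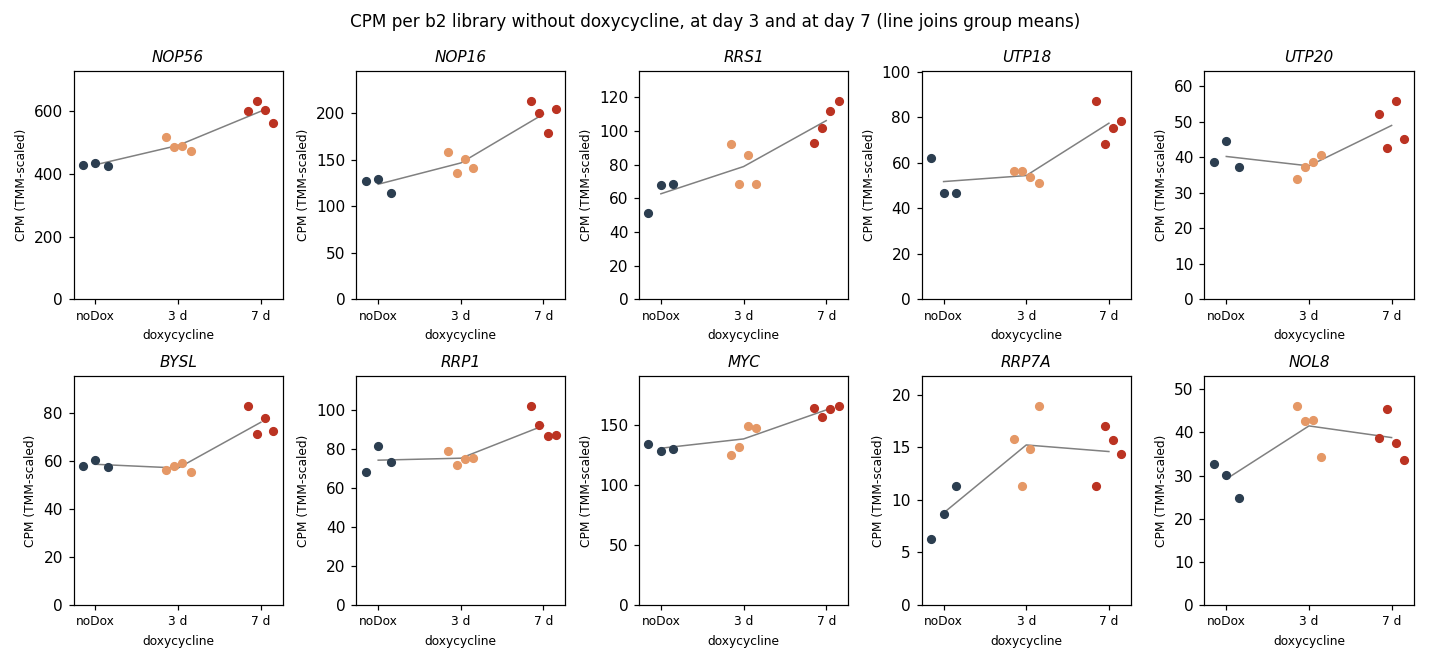
CPM (y axis, TMM-scaled, from 0) of 10 genes in each b2 library without doxycycline and at 3 and 7 days (x axis), with a grey line through the group means. Means of NOP56, NOP16 and RRS1 are ordered untreated, day 3, day 7, day 3 values of UTP18, UTP20 and BYSL overlap the untreated ones, MYC reaches 157 to 166 CPM at day 7, and RRP7A and NOL8 are highest on average at day 3.

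The same 7 b2 libraries do not have the same counts in the 2 tables, which bears on which genes could be read. Of the 58 listed in both, 11 (19%) differed by over 1.5-fold in mean CPM. Where the 2 tables averaged 20 CPM or more it was 7 of 52 (13.5%), against 18.8% of all 6342 such genes in both tables. NOP2, the methyltransferase of a 28S cytosine, averaged 1.55 CPM in the day 7 table and 89.2 CPM in the day 3 table. RRP1 averaged 3.09 CPM in the day 7 table and 84.2 CPM in the day 3 table. Both had few UMIs in the day 7 table. The other 9 were higher in the day 7 table, led by WDR43 at 39.4 CPM, against 5.04 CPM in the day 3 table, and UTP11 at 125 CPM, against 26.7 CPM. NOL8, which was called at day 3, is among the 9, at 59.2 CPM in the day 7 table, against 34.7 CPM. NOP2 had 68.7, 79.7 and 71.8 CPM without doxycycline, 79.4, 78.96, 94.1 and 85.7 CPM at day 3 and 106, 98.6, 103 and 96.7 CPM at day 7 in the day 3 table, with a log2 change of 0.26 ± 0.08 (SE, adjusted p = 0.0715) at day 7 over day 3. With the day 3 table's counts of the b2 libraries, day 7 against no doxycycline gave 18 higher and 1 lower, NOP53, of the 58 tested. The genes higher there were not all the same as those called in the day 7 table.

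**Figure D5:**
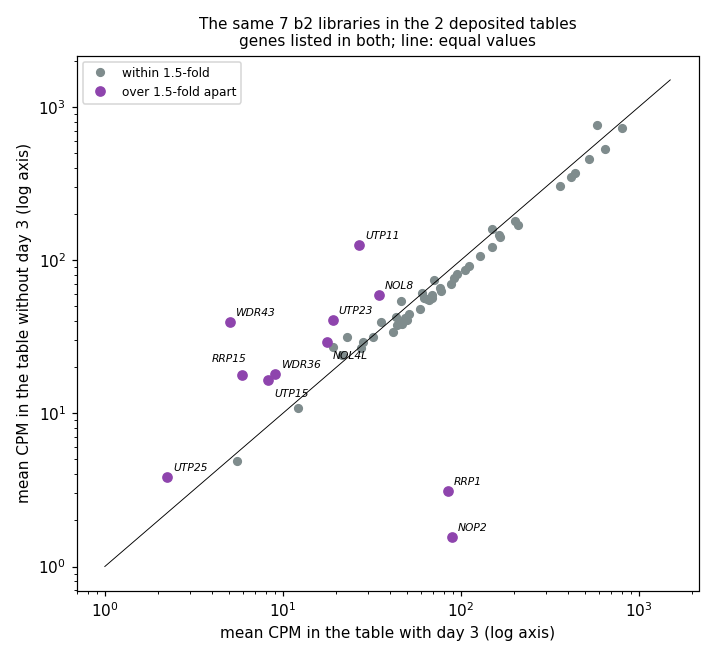
Mean CPM over the same 7 b2 libraries in the day 3 table (x axis, log scale) and in the day 7 table (y axis, log scale) for the 58 genes listed in both, with a line at equal values. The 11 purple points differ by over 1.5-fold, with NOP2 and RRP1 far below the line and WDR43 and UTP11 far above it.

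A feature the rule did not use is the snoRNA genes that lie inside some of these genes and are released from their introns. By GENCODE 29 on GRCh38, 9 of the 60 (15%) hold a snoRNA gene on the same strand: DKC1, GNL3, NCL, NOL11, NOP53, NOP56, NOP58, POLR1C and WDR43. Over tested protein-coding genes of the day 7 table this was 205 of 11099 (1.85%). NOP56 holds SNORD56, SNORD57, SNORD86, SNORD110 and SNORA51. At day 7, 2 of these 9 were called, NOP56 and POLR1C, while 26 of the 205 host genes were higher (12.7%) and 12 were lower (5.85%). The 3′ tags count the spliced host transcripts and not the snoRNAs.

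Leaving out 1 library at a time, the number of the 58 genes called higher at day 7 ran from 14 (without untreated b2 library 1 or 4) to 20 (without day 7 b2 library 17 or untreated b1 library 3). The 6 called genes that lost their call in some of the 11 fits were BOP1, UTP20, UTP14A, WDR46, WDR74 and RRP36, with highest adjusted p of 0.132, 0.113, 0.113, 0.119, 0.0686 and 0.067 by edgeR's quasi-likelihood test. All 6 were lost without untreated b2 library 1. Without untreated b2 library 4, those of BOP1, UTP20, UTP14A, WDR46 and WDR74 were lost, and without untreated b2 library 2 those of BOP1, UTP14A and RRP36. Without the day 7 b1 library, all of them but UTP14A were lost and NOP53 was called lower (adjusted p = 0.0207). Single day 7 b2 libraries mattered for UTP20 (17 and 19), BOP1 and UTP14A (18), and BOP1, WDR46 and WDR74 (20), and untreated b1 library 1 for BOP1.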

How the data were processed

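RNA of 15 samples was measured by a bulk 3′-end method with unique molecular identifiers (MARS-seq), per the labels' protocols. The submitters' processing notes name bcl2fastq, cutadapt, STAR 2.4.2a, HTSeq, DESeq2 and hg38, with no settings, and do not say whether counting used strand. The authors deposited 2 tables of raw counts of UMIs per gene, which were used as deposited. They list only genes with at least 6 UMIs in some library. Another 55 columns of per-sample values were not used. The 7 b2 libraries in both tables have different counts there, so each table had its own fit and levels are compared within a table.

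Low genes were removed by filterByExpr, and the rest were tested after TMM scaling in edgeR 4.0.16 (R 4.3.3; robust quasi-likelihood, batch as a term in the day 7 table, Benjamini-Hochberg over all genes tested, threshold 0.05). The code was tested on simulated data. Alternatives were DESeq2 1.42.0, limma-voom 3.58.1, other scalings and filters, b2 alone, no batch term, and each library left out in turn. The day 7 b1 group has 1 library, so SEs and p-values for b1 take their spread from the other groups. The same holds for differences between the batches, and where a library left out gave b1 fewer. The labels do not say that samples of a group are separate cultures, so p-values measure only the spread between these samples. Sums, overlaps of ranges and annotation (GENCODE 29, RefSeq promoters of GRCh38.p14) were computed with Python 3.11.15 and pandas 2.3.3.

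The genes, their role classes and the lists were chosen with earlier results of these data known. Values per library are given for genes called at day 7 (up to 5 per class by p), for those called at day 3 or at day 7 against day 3, for POLR1A, FBL, NOP56, DKC1, NCL, NPM1 and MYC, and for up to 2 uncalled genes per class with an opposite sign or a wide interval. NOL11, NOP58, NOP2, UTP14A, POLR1H and the E-box copies were added after their values were seen.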

Additional observations from a re-analysis of the deposited data

Results flagged for a closer look

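In 4 cases a library of the day 7 b2 group stood apart from the other 3 for a gene named in the report, out of 106 groups of 4 examined (3.77%), and chance flags about 1 in 20 groups. NOL4L was highest in day 7 b2 library 20 in both tables, at 35.7 CPM in the day 7 table, where the next value was 29.4 CPM, and at 19.8 CPM in the day 3 table, where the next was 17.8 CPM. NOL8 was lowest in the same library in the day 7 table, at 50.9 CPM, where the next value was 66.5 CPM. NOL12 was highest in day 7 b2 library 17 in the day 3 table, at 90.5 CPM, where the next value was 61.1 CPM.

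The day 7 effect differed from the day 3 effect, both over the same untreated libraries, for 7 genes by edgeR's quasi-likelihood test of the difference itself. On the log2 scale, day 7 minus day 3 was 0.51 for UTP18, 0.45 for RRS1, 0.44 for NOP16, 0.42 for BYSL, 0.38 for UTP20, 0.29 for NOP56 and 0.29 for RRP1. All 7 were higher at day 7, in every day 7 library than in every day 3 library.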

How the results depend on the processing

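Of the 58 genes tested at day 7, 19 were called higher as reported. Across DESeq2, limma-voom, other scalings and filters, b2 alone and the day 3 table's counts, 13 to 23 were. The genes called were not the same throughout. With the day 3 table's counts, NHP2, NOL7, NOL12, RRP36, UTP20, WDR46 and WDR74 lost their call, and BOP1 is not listed there. Some named genes uncalled as reported were called higher in alternative settings. These were MYC (5 of 9), NCL (3 of 10), NOP58 (2 of 10) and RRP1 (1 of 9). With no batch term 3 were called. None was called lower as reported; 1, NOP53, was with library size alone, in b2 alone and with the day 3 table's counts. Library size alone moved the day 7 median of all genes to -0.09 and the split over all genes to 667 higher and 1429 lower, in place of 1049 and 906. Leaving out 1 library gave 14 to 20 higher and 0 to 1 lower. POLR1B, at 0.05, was at -0.0156 with library size alone and ran from -0.0371 to 0.222 with 1 library left out; NOL3 ran from -0.108 to 0.0164 and NOL8 from -0.0306 to 0.204, all uncalled. At day 3, the 2 higher genes became 1 with DESeq2 or a mean of at least 20 CPM, 0 with limma-voom, library size alone or without the 2 untreated libraries whose labels fit both batches (added after seeing the data), and 0 to 4 with 1 library left out. At day 7 against day 3, leaving out 1 library gave 4 to 7 higher. For the difference between batches, library size alone called 1 lower, and leaving out 1 library 0 to 1 in each direction. Between untreated b2 and b1, leaving out 1 library gave 18 to 23 higher and 5 to 13 lower, and library size alone 5 lower. Titles give untreated samples of both batches the same numbers with no sign that these pair cultures; with the number as a replicate block, in untreated libraries alone, 22 were higher and 5 lower, and 23 and 13 without it. The causes were not tested. Depth limits genes such as RRP7A, UTP25, RRP1 and WDR75, which had under 80 UMIs in every library of the day 7 table, and b1 has 1 day 7 library.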
